A study of Mus musculus with 28 samples.

Results

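The interferon regulatory factor (IRF) genes of mouse macrophages described here are Irf1, Irf2, Irf3, Irf4, Irf5, Irf7 and Irf8. They were taken from the deposited count tables by matching Ensembl gene IDs to these symbols, and 7 of 7 were found in both tables, among 15423 genes in the first table and 56941 in the second. All 7 passed the filter on low counts in both experiments, where 13998 and 15429 genes were tested. The cells were bone marrow-derived macrophages, which are grown from marrow with the growth factors that L929 cells secrete, and messenger RNA was sequenced in 28 libraries, 4 in each of 7 groups. The study asked how loss of Irgm1, an interferon-induced GTPase of cell-autonomous immunity, alters macrophage transcription and how far the changes depend on type I interferon.

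In the first experiment, cells lacking both Irgm1 and IFNAR, the receptor for type I interferon, (labelled Irgm_IFNAR-KO) were set beside cells lacking Irgm1 (Irgm1-KO) and wild-type cells (WT), none of them with a listed treatment. The second experiment held Irgm1KO cells with 50 µM fenofibrate, Irgm1KO control cells, WT cells with 50 µM fenofibrate and WT control cells. Fenofibrate, a fibrate used to lower blood lipids, is an agonist of PPAR alpha. Per the labels, both mutants had been backcrossed to C57BL/6, the strain of the wild-type mice, donors of either sex were 2 to 4 months old, marrow cells grew for 6 days with L929-conditioned medium, and this medium was withheld for the last 24 h. No group lacked the receptor alone, so its loss can be read only in cells that also lack Irgm1, and the Irgm1 mutant is 1 published knockout line. The labels used here give neither how long fenofibrate was present nor what control cells received. They do not say that the 4 libraries of a group came from separate animals, so the p-values measure the spread between libraries, which may be partly technical.

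IRF proteins bind related DNA elements in the promoters of interferon and interferon-stimulated genes. IRF3 lies inactive in the cytoplasm until the kinase TBK1 phosphorylates it downstream of nucleic acid sensors, and it then starts transcription of interferon beta. Secreted interferon signals through IFNAR to raise transcription of Irf7, whose protein amplifies the response, while IRF5 drives inflammatory cytokine genes downstream of endosomal Toll-like receptors. IRF1 activates many interferon-gamma targets, IRF2 competes with it at shared sites, and IRF8 and IRF4 act with the factor PU.1 in myeloid and lymphoid differentiation.

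The upstream sequences of Irf7, Irf1, Irf8 and Irf2 are shown because these genes moved in different ways across the groups, described below by gene. They come from RefSeq (build GRCm38.p6), 5′ to 3′ on the strand of the gene, and are cut to bases that lie in no annotated exon: chr7:141266482-141266674 on the minus strand, and chr11:53769764-53770013, chr8:120736108-120736357 and chr8:46739516-46739731 on the plus strand. Capitals mark matches to the gamma-activated sequence TTCNNNGAA, an element of interferon-gamma-responsive promoters.
Irf7: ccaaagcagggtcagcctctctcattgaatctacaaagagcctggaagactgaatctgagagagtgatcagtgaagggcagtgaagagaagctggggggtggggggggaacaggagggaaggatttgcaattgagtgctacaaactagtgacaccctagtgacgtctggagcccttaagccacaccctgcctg
Irf1: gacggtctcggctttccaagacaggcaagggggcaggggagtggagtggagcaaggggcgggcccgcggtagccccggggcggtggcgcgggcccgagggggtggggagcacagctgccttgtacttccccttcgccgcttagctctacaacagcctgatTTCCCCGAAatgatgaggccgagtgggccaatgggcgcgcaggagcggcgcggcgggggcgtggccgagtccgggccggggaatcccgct
Irf8: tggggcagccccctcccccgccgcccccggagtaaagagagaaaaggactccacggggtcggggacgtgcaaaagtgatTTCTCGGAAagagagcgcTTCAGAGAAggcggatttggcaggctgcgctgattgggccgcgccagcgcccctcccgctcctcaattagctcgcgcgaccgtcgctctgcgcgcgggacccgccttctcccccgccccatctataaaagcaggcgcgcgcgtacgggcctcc
Irf2: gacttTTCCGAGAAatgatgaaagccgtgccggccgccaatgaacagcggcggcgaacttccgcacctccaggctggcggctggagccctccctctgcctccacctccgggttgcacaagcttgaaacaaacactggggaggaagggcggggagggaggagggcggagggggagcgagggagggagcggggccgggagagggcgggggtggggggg

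Both strands of each window, from 250 bases before to 50 bases after the start, were searched for TTCNNNGAA and for the interferon-stimulated response element, taken as GAAA, any 2 bases and GAAA again, and no match of either kind overlapped another. Irf1 held TTCCCCGAA 90 to 82 bases before its start. Irf8 held TTCTCGGAA 171 to 163 and TTCAGAGAA 153 to 145 bases before its start. Irf2 held TTCCGAGAA 224 to 216 bases before its start and GAAAATGAAA 241 to 232 bases before it, which lies just outside the stretch shown. The windows of Irf3, Irf4, Irf5 and Irf7 held neither set of letters, and nor did the second listed promoter of Irf1 or of Irf8. Of 32851 RefSeq promoter windows of the same length, 8.30% held TTCNNNGAA and 3.44% held the response element. A match, or its absence, describes these letters within the window only, and other forms of the elements or sites elsewhere were not searched.

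By GENCODE M21 (GRCm38), Irf1 lies on chromosome 11 (chr11:53770014-53778374), 4.9 Mb from Irgm1, Irf7 on chromosome 7 (chr7:141262706-141266481) and Irf8 on chromosome 8 (chr8:120736358-120756694). Exons of some members share bases with a gene on the opposite strand, namely 411 bases between Irf5 and Tnpo3, 135 between Irf1 and Gm17334, 88 between Irf3 and Bcl2l12 and 45 between Irf7 and Phrf1. The sources used here do not give whether the authors counted by strand, and reads in those bases could belong to either gene.

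Depth was 48.65 to 70.46 M counts per library for the Irgm_IFNAR-KO, Irgm1-KO and WT groups, and 82.36 to 120.8 M per library in the fenofibrate experiment, and every member except Irf4 had at least 1133 reads in each library. Irgm1 itself stood at 716 ± 73.5 CPM (read counts scaled to library size, mean ± SD, n = 4) in Irgm_IFNAR-KO cells and 760 ± 92.0 CPM in Irgm1-KO cells, against 1293 ± 74.4 CPM in WT cells. Ifnar1 stood at 96.04 ± 28.8 CPM in Irgm_IFNAR-KO cells and 121 ± 6.64 CPM in Irgm1-KO cells, and since the labels do not say which part of either gene was deleted, these counts are a weak check. The macrophage markers were present in all libraries, but the sum of the 10 markers was 34050 to 47040 CPM in Irgm_IFNAR-KO cells and 13430 to 20930 CPM in Irgm1-KO cells, against 26290 to 49580 CPM in WT cells. Lyz2 alone stood at 27100 ± 5620 CPM in Irgm_IFNAR-KO and 5560 ± 2290 CPM in Irgm1-KO cells, against 23200 ± 8750 CPM in WT cells, and of the 10 markers 1 was called higher and 3 lower in Irgm1-KO than in WT cells. In the second experiment the sum was 13630 to 16300 CPM in Irgm1KO controls against 26340 to 35880 CPM in WT controls, with 1 marker called higher and 6 lower, and the part of these markers in the results below was not tested. Markers of T and NK cells and of erythroid cells were at or near 0 in the second experiment and were not analysed in the first. In such bulk libraries, fewer cells of a type and less RNA per cell cannot be told apart.

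Set side by side per kb of exon, the members covered a wide range of levels, and their order changed with genotype. In Irgm_IFNAR-KO cells Irf7 stood at 7.61 ± 0.799 CPM per kb (SD, n = 4), next to Irf3 at 7.93 ± 0.594 CPM per kb, with only Irf4 below them. In Irgm1-KO cells the level per length was highest for Irf7, at 651 ± 96.0 CPM per kb, followed by 300 for Irf1, 123 for Irf5, 76.7 for Irf8, 22.4 for Irf2, 7.94 for Irf3 and 0.0881 CPM per kb for Irf4. In WT cells of the same experiment Irf1 led, at 252 ± 10.9 CPM per kb, followed by 122 for Irf7, 119 for Irf8, 75.4 for Irf5, 21.8 for Irf2, 7.32 for Irf3 and 0.355 CPM per kb for Irf4. The 7 genes together took 0.209% to 0.224% of all counts in Irgm_IFNAR-KO libraries and 0.424% to 0.519% in Irgm1-KO libraries, against 0.253% to 0.287% in WT libraries.

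**Figure D1:**
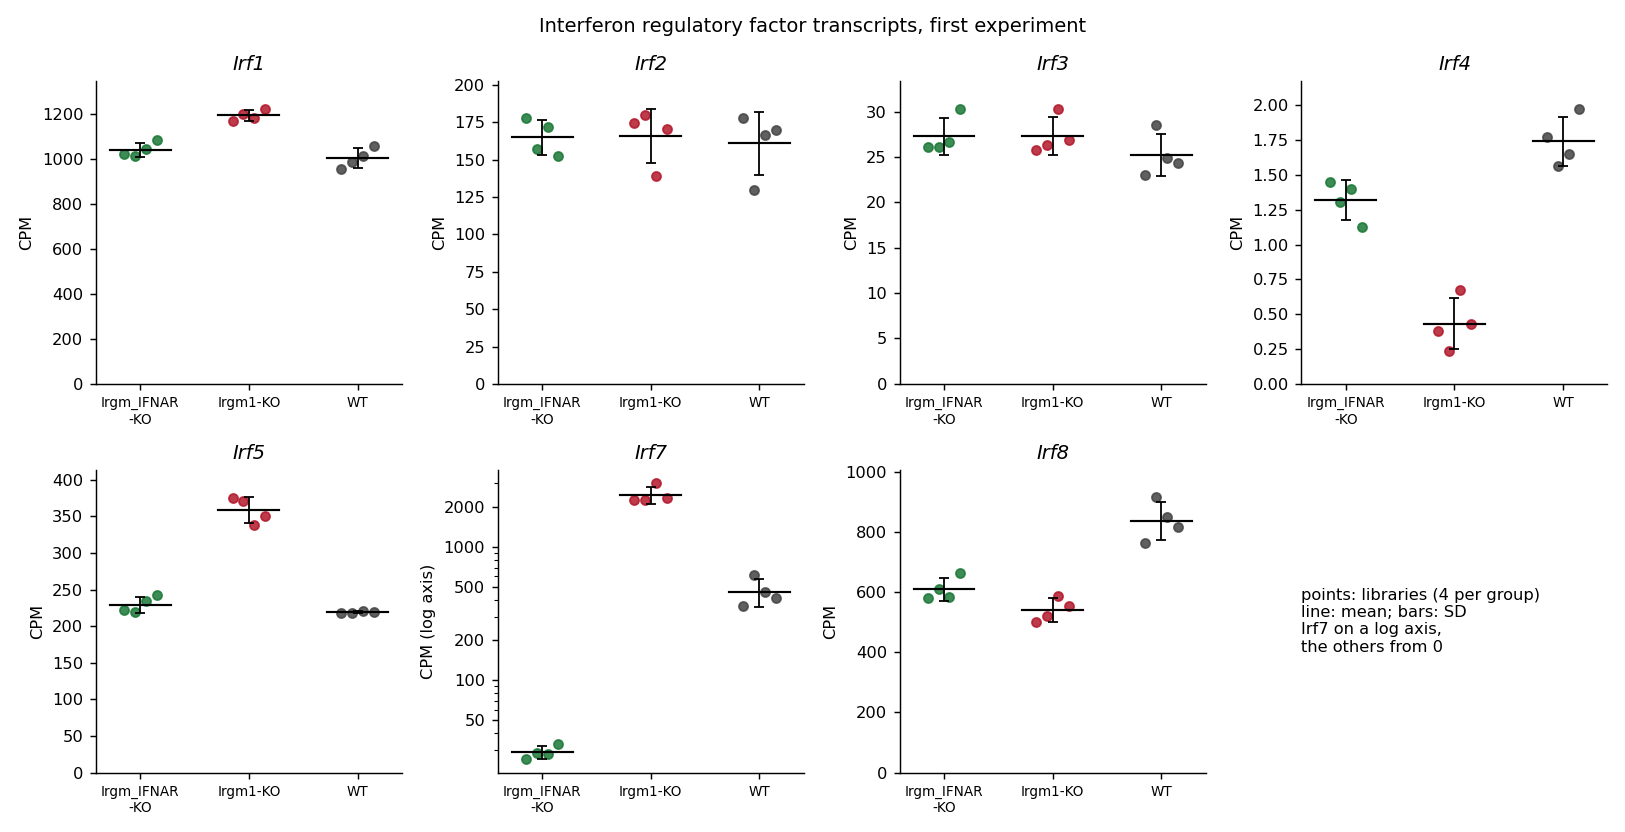
CPM of each IRF gene in the first experiment, by group (points are libraries, 4 per group; line, mean; bars, SD). Irf7 is on a log axis and the others start at 0. Irf7 had 25.6 to 32.9 CPM in Irgm_IFNAR-KO cells and 2237 to 2996 CPM in Irgm1-KO cells, against 360 to 612 CPM in WT cells.

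Loss of Irgm1 came with higher transcript levels of Irf7, Irf5 and Irf1 and lower levels of Irf8 and Irf4. Of the 7 genes, 3 were higher and 2 lower in Irgm1-KO than in WT cells at an adjusted p below 0.05 (edgeR's quasi-likelihood test, Benjamini-Hochberg adjusted across all genes that passed the filter), while 19.8% of all tested genes were called higher and 20.7% lower. Libraries of the groups did not overlap for those same 5 genes, and did not overlap for 35.0% of tested genes. Irf7, the amplifier of type I interferon production, had 2250, 2237, 2996 and 2344 CPM in the Irgm1-KO libraries, against 360, 612, 461 and 416 CPM in the WT libraries. Every Irgm1-KO library was far above every WT library, and the group difference was 5.32-fold (log2 fold change 2.41, SE 0.164, adjusted p = 3.51e-07). Within the Irgm1-KO group, replicate 3 stood above the other libraries. Irf3, its constitutive relative, had 27.3 ± 2.05 CPM in Irgm1-KO cells and 25.2 ± 2.32 CPM in WT cells, with overlapping libraries and a difference that did not pass the test (log2 fold change 0.12, SE 0.0878, adjusted p = 0.319, 95% interval -0.07 to 0.31). With the log2 level of Xist, a gene of female cells, as a covariate for the mix of sexes, Irf3 was called higher in Irgm1-KO cells (log2 fold change 0.17, adjusted p = 0.00982).

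Irf5, which drives inflammatory cytokine genes, had 376, 370, 338 and 350 CPM in Irgm1-KO cells, against 219, 218, 221 and 219 CPM in WT cells. The WT libraries were nearly identical for this gene, and all Irgm1-KO libraries lay clearly above them (log2 fold change 0.71, SE 0.0637, adjusted p = 3.04e-06). Irf1, the interferon-gamma-induced activator, had 1170, 1200, 1182 and 1224 CPM in Irgm1-KO cells, against 957, 985, 1015 and 1059 CPM in WT cells. The groups did not overlap, but the difference was small beside that of Irf7 (log2 fold change 0.25, SE 0.0582, adjusted p = 0.00433). Its competitor Irf2 averaged 166 ± 18.3 CPM in Irgm1-KO cells and 161 ± 21.3 CPM in WT cells (SD, n = 4), with overlapping libraries and no call (log2 fold change 0.04, SE 0.113, adjusted p = 0.785, 95% interval -0.20 to 0.29).

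Irf8, the lineage factor of monocytes and dendritic cells, had 500, 521, 589 and 556 CPM in Irgm1-KO cells, against 766, 917, 850 and 818 CPM in WT cells. All Irgm1-KO libraries were below all WT libraries (log2 fold change -0.63, SE 0.0809, adjusted p = 5.68e-05). Irf4, best known in lymphocytes and in alternatively activated macrophages, was the least abundant member, with 0.382, 0.236, 0.677 and 0.432 CPM in Irgm1-KO cells against 1.77, 1.56, 1.65 and 1.98 CPM in WT cells. It rested on 14 to 40 reads per library in Irgm1-KO cells and 72 to 136 reads in WT cells, and the groups did not overlap (log2 fold change -2.004, SE 0.239, adjusted p = 3.48e-05). Some markers of other cell types also differed between the groups, not always in the direction of Irf8. The sum of the conventional dendritic cell markers (6 of 7 in the table) was 58.03 to 65.9 CPM in Irgm_IFNAR-KO cells and 22.5 to 26.6 CPM in Irgm1-KO cells, against 46.2 to 54.7 CPM in WT cells. Nearly all of it was Clec9a, at 57.3 ± 3.29 CPM in Irgm_IFNAR-KO and 20.2 ± 1.89 CPM in Irgm1-KO cells, against 48.1 ± 3.55 CPM in WT cells. The markers differed in direction, with 2 of 4 tested called higher and 1 lower in Irgm1-KO than in WT cells, and Xcr1 stood at 3.29 ± 0.651 CPM in Irgm1-KO and 2.12 ± 0.205 CPM in WT cells. For the B and plasma cell markers (3 of 7 in the table) it was 187 to 199 CPM in Irgm_IFNAR-KO cells and 24.8 to 45.6 CPM in Irgm1-KO cells, against 168 to 213 CPM in WT cells. Almost all of that sum was Ighm, with 192 ± 5.18 CPM in Irgm_IFNAR-KO cells, 31.2 ± 8.93 CPM in Irgm1-KO cells and 189 ± 17.7 CPM in WT cells, while Cd79b and Jchain stayed under 1 CPM in Irgm1-KO and Irgm_IFNAR-KO cells. Cd79a, Ms4a1 and Pax5 were not analysed here in this experiment, and the part of such cells in the results for Irf8 and Irf4 was not tested.

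When the interferon receptor was also missing, Irf7 fell far below even its wild-type level, Irf5 and Irf1 were lower and Irf4 was higher than in Irgm1-KO cells. Of the 7 genes, 1 was higher and 3 were lower in Irgm_IFNAR-KO than in Irgm1-KO cells, where 21.5% of tested genes were called higher and 21.3% lower. Against WT cells 2 were lower and 0 higher, where 3.94% of tested genes were called higher and 8.22% lower, and no member was higher at an unadjusted p below 0.05 in edgeR. Libraries did not overlap for 4 of the 7 against Irgm1-KO cells (42.3% of tested genes) and for 3 against WT cells (17.9%). The Irgm_IFNAR-KO libraries are shared by both comparisons, so each is given by its own values. Irf7 had 25.6, 28.5, 27.99 and 32.9 CPM in the Irgm_IFNAR-KO libraries, with no overlap with either other group. It was 85.5-fold lower than in Irgm1-KO cells (log2 fold change -6.42, SE 0.198, adjusted p = 3.16e-10) and 16.1-fold lower than in WT cells (log2 fold change -4.01, SE 0.177, adjusted p = 4.91e-08). The order of the groups for Irf7 was therefore Irgm1-KO, WT and Irgm_IFNAR-KO from high to low, each step larger than the spread between libraries.

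Irf5 had 222, 219, 234 and 242 CPM in Irgm_IFNAR-KO cells, below every Irgm1-KO library (log2 fold change -0.64, SE 0.0637, adjusted p = 5.41e-06) and overlapping the WT libraries (log2 fold change 0.07, SE 0.0634, adjusted p = 0.66, 95% interval -0.07 to 0.20). Irf1 had 1022, 1011, 1044 and 1082 CPM in Irgm_IFNAR-KO cells, below all Irgm1-KO libraries (log2 fold change -0.20, SE 0.0581, adjusted p = 0.0148), and was not called against WT cells, which it overlapped (log2 fold change 0.05, SE 0.0581, adjusted p = 0.74). The call for Irf1 against Irgm1-KO cells was lost without Irgm_IFNAR-KO replicate 2 (log2 fold change -0.18, adjusted p = 0.0551). Irf4 had 1.45, 1.30, 1.40 and 1.13 CPM in Irgm_IFNAR-KO cells (65 to 89 reads), above every Irgm1-KO library (log2 fold change 1.60, SE 0.241, adjusted p = 0.000187). These libraries also lay below all WT libraries, a difference that missed the threshold (log2 fold change -0.40, SE 0.216, adjusted p = 0.318).

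Irf8 stayed below its WT level in Irgm_IFNAR-KO cells. It had 581, 612, 585 and 663 CPM in these cells, which overlapped the Irgm1-KO libraries without a call (log2 fold change 0.17, SE 0.0806, adjusted p = 0.105, 95% interval -0.002 to 0.35). The same libraries lay below all WT libraries (log2 fold change -0.46, SE 0.0807, adjusted p = 0.00233). With the Xist covariate, Irf8 was called higher in Irgm_IFNAR-KO than in Irgm1-KO cells (log2 fold change 0.18, adjusted p = 0.00132), and Irf3 was called higher in Irgm_IFNAR-KO than in WT cells (log2 fold change 0.17, adjusted p = 0.018). Irf2 and Irf3 averaged 165 ± 11.9 and 27.3 ± 2.04 CPM in Irgm_IFNAR-KO cells, overlapped both other groups and were called in neither comparison. Against Irgm1-KO cells the 95% interval of the log2 difference was -0.25 to 0.24 for Irf2 and -0.19 to 0.19 for Irf3.

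The ratio of Irf7 to Irf3 reads within a library summarises the balance of the induced and the constitutive member without any scaling between libraries, though not corrected for gene length. It was 1.05 ± 0.0488 in Irgm_IFNAR-KO cells and 89.6 ± 6.21 in Irgm1-KO cells, against 18.2 ± 2.51 in WT cells (SD, n = 4). The ranges of the groups, 0.983 to 1.09, 85.1 to 98.8 and 15.6 to 21.5, did not touch. The ratio of Irf1 to Irf2, activator over competitor, was 6.33 ± 0.574 in Irgm_IFNAR-KO cells and 7.27 ± 0.854 in Irgm1-KO cells, against 6.33 ± 0.922 in WT cells, with overlapping ranges.

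The second experiment repeated the genotype contrast in control cells, and the fitted direction was the same for every member but Irf2. Irf7, Irf5, Irf8 and Irf4 were called in both experiments. Of the 7 genes, 3 were higher and 2 lower in Irgm1KO than in WT controls, where 27.3% of tested genes were called higher and 26.1% lower. Libraries did not overlap for 6 of the 7, all but Irf2, and for 54.1% of tested genes. Irf7 had 1680, 1430, 1388 and 1739 CPM in Irgm1KO controls, against 291, 207, 323 and 215 CPM in WT controls, a 6.02-fold difference without overlap (log2 fold change 2.59, SE 0.177, adjusted p = 1.38e-08). Irf5 had 404, 397, 366 and 410 CPM in Irgm1KO controls, against 235, 230, 231 and 228 CPM in WT controls (log2 fold change 0.77, SE 0.0635, adjusted p = 4.9e-08). For both genes the lowest Irgm1KO library was well above the highest WT library. Irf3 was called here, with 25.3, 24.99, 25.4 and 26.9 CPM in Irgm1KO controls against 21.7, 20.7, 22.99 and 22.7 CPM in WT controls, a small difference without overlap (log2 fold change 0.22, SE 0.0563, adjusted p = 0.00346). Irf8 had 527, 535, 532 and 521 CPM in Irgm1KO controls, against 680, 676, 731 and 660 CPM in WT controls, again with every knockout library below every WT library (log2 fold change -0.38, SE 0.0516, adjusted p = 1.17e-05).

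Irf4 had 0.517, 0.434, 0.413 and 0.398 CPM in Irgm1KO controls, against 1.27, 0.631, 0.693 and 1.07 CPM in WT controls, without overlap (log2 fold change -1.06, SE 0.246, adjusted p = 0.00166). Its WT libraries spread over a 2.02-fold range, so the size of this difference is less certain than its direction. Irf1 had 1129, 1121, 1090 and 1155 CPM in Irgm1KO controls, against 1088, 1073, 1072 and 1066 CPM in WT controls. These groups did not overlap either, but the small step missed the threshold (log2 fold change 0.06, SE 0.0528, adjusted p = 0.319). Irf2 averaged 200 ± 6.44 CPM in Irgm1KO controls and 204 ± 7.16 CPM in WT controls, with overlap and no call (log2 fold change -0.03, SE 0.0495, adjusted p = 0.634). Among other cells' markers, the dendritic cell sum was 54.98 to 59.2 CPM in Irgm1KO controls against 27.3 to 45.8 CPM in WT controls (2 higher and 0 lower of 5 tested). It was mostly Clec9a, at 53.7 ± 1.69 CPM in Irgm1KO and 36.2 ± 7.7 CPM in WT controls. In the first experiment Clec9a was lower in Irgm1-KO than in WT cells. Xcr1 had a higher mean in the knockout in both experiments, here at 3.45 ± 0.917 CPM against 1.25 ± 0.269 CPM in WT controls. The B and plasma cell sum was 5.49 to 11.7 CPM in Irgm1KO controls against 33.05 to 58.5 CPM in WT controls, again nearly all Ighm, with Cd79a, Ms4a1 and Pax5 at no more than 0.119 CPM in any library. The part of these markers in the results for Irf8 and Irf4 was not tested.

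**Figure D2:**
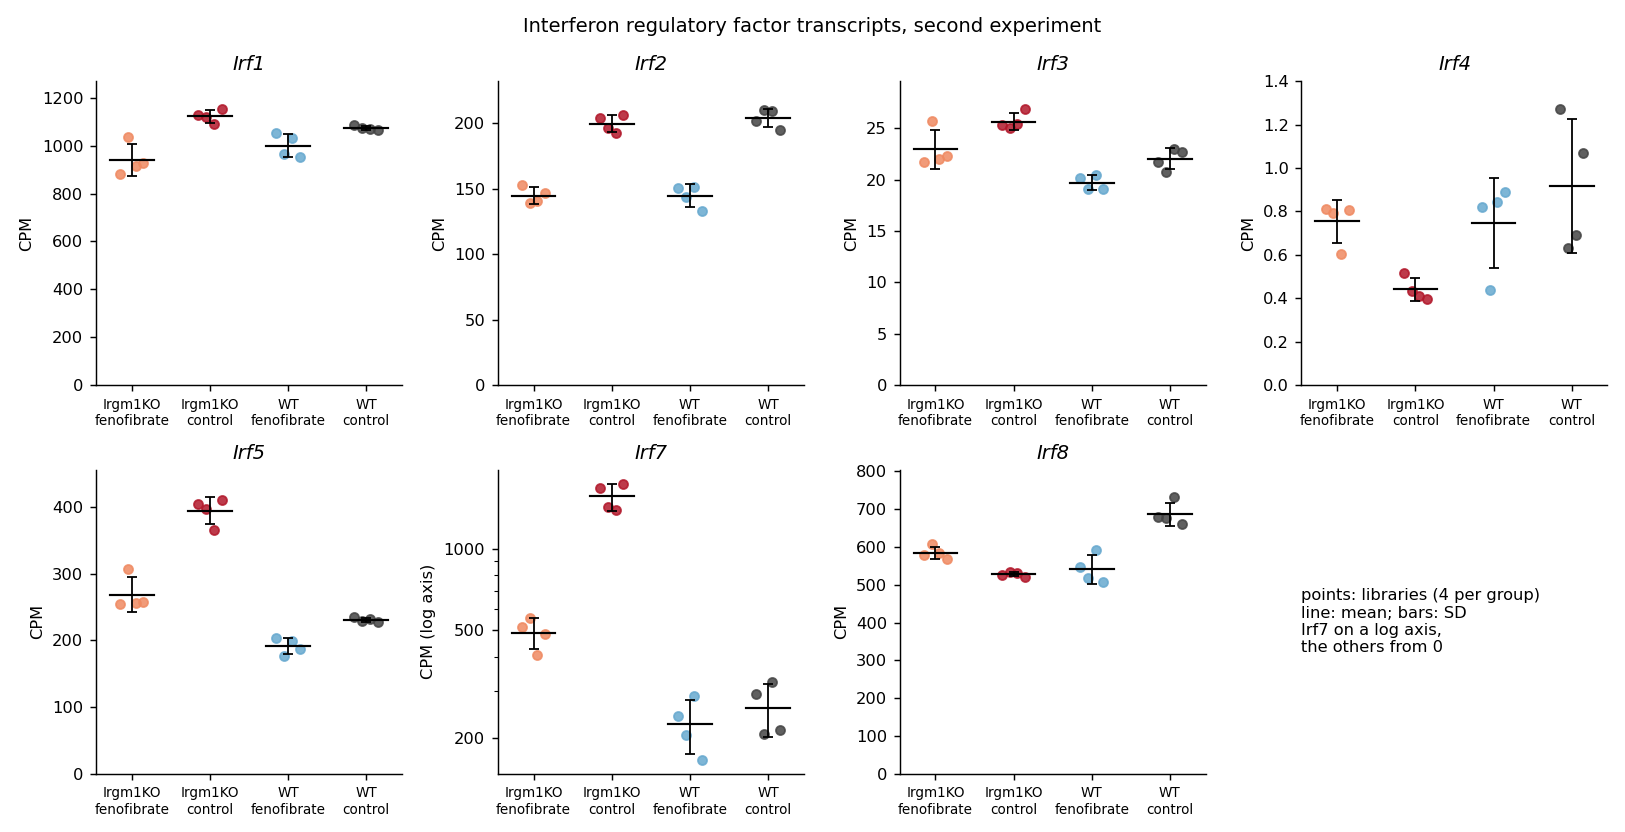
CPM of each IRF gene in the second experiment, by group (points are libraries, 4 per group; line, mean; bars, SD). Irf7 is on a log axis and the others start at 0. Irf7 in fenofibrate-treated Irgm1KO cells (405 to 558 CPM) lies between the Irgm1KO controls (1388 to 1739 CPM) and both WT groups.

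Fenofibrate lowered most IRF transcripts in Irgm1KO cells, Irf7 most of all, and raised Irf4 and Irf8. Of the 7 genes, 5 were lower and 2 higher in fenofibrate-treated than in control Irgm1KO cells, with 22.2% of tested genes called lower and 23.5% higher. Treated and control libraries did not overlap for 6 of the 7, all but Irf3, and for 41.5% of tested genes. Irf7 had 513, 558, 405 and 486 CPM with fenofibrate, against 1680, 1430, 1388 and 1739 CPM in Irgm1KO controls, a 3.18-fold reduction without overlap (log2 fold change -1.67, SE 0.172, adjusted p = 1.44e-06). Irf5 had 254, 307, 256 and 257 CPM with fenofibrate, against 404, 397, 366 and 410 CPM in Irgm1KO controls (log2 fold change -0.55, SE 0.0633, adjusted p = 2.78e-06). Treated libraries lay below control libraries for both genes, and in each of the 4 same-numbered pairs of a treated and a control library the treated library was lower. Irf2 had 152, 139, 140 and 147 CPM with fenofibrate, against 204, 197, 192 and 206 CPM in Irgm1KO controls, again without overlap (log2 fold change -0.47, SE 0.0497, adjusted p = 1.33e-06). Irf1 had 884, 1036, 915 and 927 CPM with fenofibrate, against 1129, 1121, 1090 and 1155 CPM in Irgm1KO controls (log2 fold change -0.26, SE 0.0529, adjusted p = 0.000769), lower in 4 of 4 pairs. Treated replicate 2 was the highest of its group for Irf1, Irf3, Irf5, Irf7 and Irf8.

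Irf3 had 21.7, 25.7, 22.0 and 22.3 CPM with fenofibrate, against 25.3, 24.99, 25.4 and 26.9 CPM in Irgm1KO controls, with overlap through treated replicate 2 (log2 fold change -0.16, SE 0.0563, adjusted p = 0.0279). That call was lost without treated replicate 3 (log2 fold change -0.14, adjusted p = 0.0837) or 4 (log2 fold change -0.15, adjusted p = 0.0741), and with no filter on low counts (adjusted p = 0.0921). Irf8 was higher with fenofibrate, at 579, 607, 583 and 569 CPM against 527, 535, 532 and 521 CPM in Irgm1KO controls, without overlap and in 4 of 4 pairs (log2 fold change 0.15, SE 0.0516, adjusted p = 0.0299). The change was small, and its call was lost when WT control replicate 2, any of the 4 Irgm1KO control libraries or treated replicate 1, 2 or 3 was left out, with log2 fold changes of 0.11 to 0.15 and adjusted p from 0.0505 to 0.102. Irf4 had 0.811, 0.793, 0.606 and 0.806 CPM with fenofibrate, against 0.517, 0.434, 0.413 and 0.398 CPM in Irgm1KO controls, without overlap and in 4 of 4 pairs (log2 fold change 0.76, SE 0.249, adjusted p = 0.0191), on 59 to 76 and 32 to 63 reads per library. Without Irgm1KO control replicate 4 its adjusted p was 0.0534. The B and plasma cell marker sum was 7.21 to 20.6 CPM in treated Irgm1KO cells against 5.49 to 11.7 CPM in Irgm1KO controls, with overlapping libraries. The macrophage marker sum was 17890 to 21640 CPM in treated and 13630 to 16300 CPM in control cells, without overlap (2 higher and 4 lower of 10 tested). Lyz2 alone stood at 10600 ± 1570 CPM in treated and 5350 ± 950 CPM in control cells. Csf1r was lower, at 1840 ± 49.9 CPM in treated and 2560 ± 96.9 CPM in control cells, as was Fcgr1, at 574 ± 58 and 1100 ± 95.1 CPM. The neutrophil sum was 56.6 to 59.9 CPM in treated and 110 to 132 CPM in control cells, also without overlap (1 higher and 1 lower of 3 tested). Nearly all of that sum was Csf3r, at 56.4 ± 1.85 CPM in treated and 121 ± 10.6 CPM in control cells. S100a8 went the other way, at 1.68 ± 0.636 CPM in treated and 0.442 ± 0.136 CPM in control cells. The sums of the monocyte markers (0 higher and 3 lower of 4 tested) and of the dendritic cell markers (0 higher and 2 lower of 5 tested) overlapped, and the part of all these markers in the results for Irgm1KO cells was not tested.

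In WT cells the drug left Irf7 with no call in the fit without a replicate block, and lowered Irf2, Irf8, Irf5 and Irf3. Of the 7 genes, 4 were lower and 0 higher in fenofibrate-treated than in control WT cells, with 16.9% of tested genes called lower and 18.1% higher. For 5 of the 7, and for 37.1% of tested genes, treated and control libraries did not overlap. The fitted change of all 7 was below 0 in edgeR and in DESeq2. Irf7 had 242, 206, 286 and 166 CPM with fenofibrate, against 291, 207, 323 and 215 CPM in WT controls, with widely overlapping libraries (log2 fold change -0.20, SE 0.168, adjusted p = 0.388, 95% interval -0.56 to 0.16). Each treated library was nonetheless below its same-numbered control, with log2 differences of -0.366 to -0.00279. Without the block the fitted log2 value was -0.34 without treated replicate 3 and -0.30 without control replicate 2, but -0.08 without treated replicate 4 or control replicate 3, and it was called in none of these fits. With the replicate block Irf7 was called lower (log2 fold change -0.20, adjusted p = 0.0442). Irf2 had 151, 143, 151 and 133 CPM with fenofibrate, against 201, 210, 209 and 195 CPM in WT controls, without overlap (log2 fold change -0.50, SE 0.0497, adjusted p = 3.09e-06). Irf8 had 546, 518, 592 and 507 CPM with fenofibrate, against 680, 676, 731 and 660 CPM in WT controls, without overlap (log2 fold change -0.34, SE 0.0516, adjusted p = 9.64e-05). Irf5 had 204, 176, 199 and 187 CPM with fenofibrate, against 235, 230, 231 and 228 CPM in WT controls, without overlap (log2 fold change -0.27, SE 0.0632, adjusted p = 0.00344). For these 3 genes the treated library was lower in 4 of 4 pairs.

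Irf3 had 20.2, 19.1, 20.5 and 19.04 CPM with fenofibrate, against 21.7, 20.7, 22.99 and 22.7 CPM in WT controls (log2 fold change -0.16, SE 0.0564, adjusted p = 0.0341), a small step between ranges that nearly touch. Its call was lost without WT control replicate 3 or 4 or treated replicate 2 or 4 (log2 fold change -0.15 at treated replicate 2, adjusted p from 0.0728 to 0.0899) and with no filter on low counts (adjusted p = 0.094). Irf1 had 1052, 965, 1032 and 954 CPM with fenofibrate, against 1088, 1073, 1072 and 1066 CPM in WT controls, without overlap but with no call (log2 fold change -0.10, SE 0.0528, adjusted p = 0.147). It was called by DESeq2 (adjusted p = 0.0471) and when Irgm1KO fenofibrate replicate 2, which shares the estimate of spread, was left out (adjusted p = 0.0437). Irf4 averaged 0.748 ± 0.208 CPM with fenofibrate and 0.917 ± 0.307 CPM in WT controls (SD, n = 4), with overlap and no call (log2 fold change -0.30, SE 0.236, adjusted p = 0.352). The macrophage marker sum was 16200 to 25870 CPM in treated against 26340 to 35880 CPM in control WT cells (1 higher and 7 lower of 10 tested). Sums of other cells' markers were lower with fenofibrate too, each without overlap. The monocyte sum was 19.5 to 41.2 CPM in treated and 88.1 to 142 CPM in control cells (0 higher and 4 lower of 4 tested), and the neutrophil sum was 44.7 to 74.5 CPM in treated and 91.7 to 108 CPM in control cells (0 higher and 2 lower of 3 tested). Nearly all of the neutrophil sum was Csf3r, at 64.1 ± 14.9 CPM in treated and 96.5 ± 7.94 CPM in control cells. The dendritic cell sum was 8.55 to 24.8 CPM in treated and 27.3 to 45.8 CPM in control cells (0 higher and 2 lower of 5 tested), and the B and plasma cell sum was 5.31 to 18.5 CPM in treated and 33.05 to 58.5 CPM in control cells (0 higher and 1 lower of 2 tested). The part of these markers in the lower IRF levels was not tested.

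**Figure D3:**
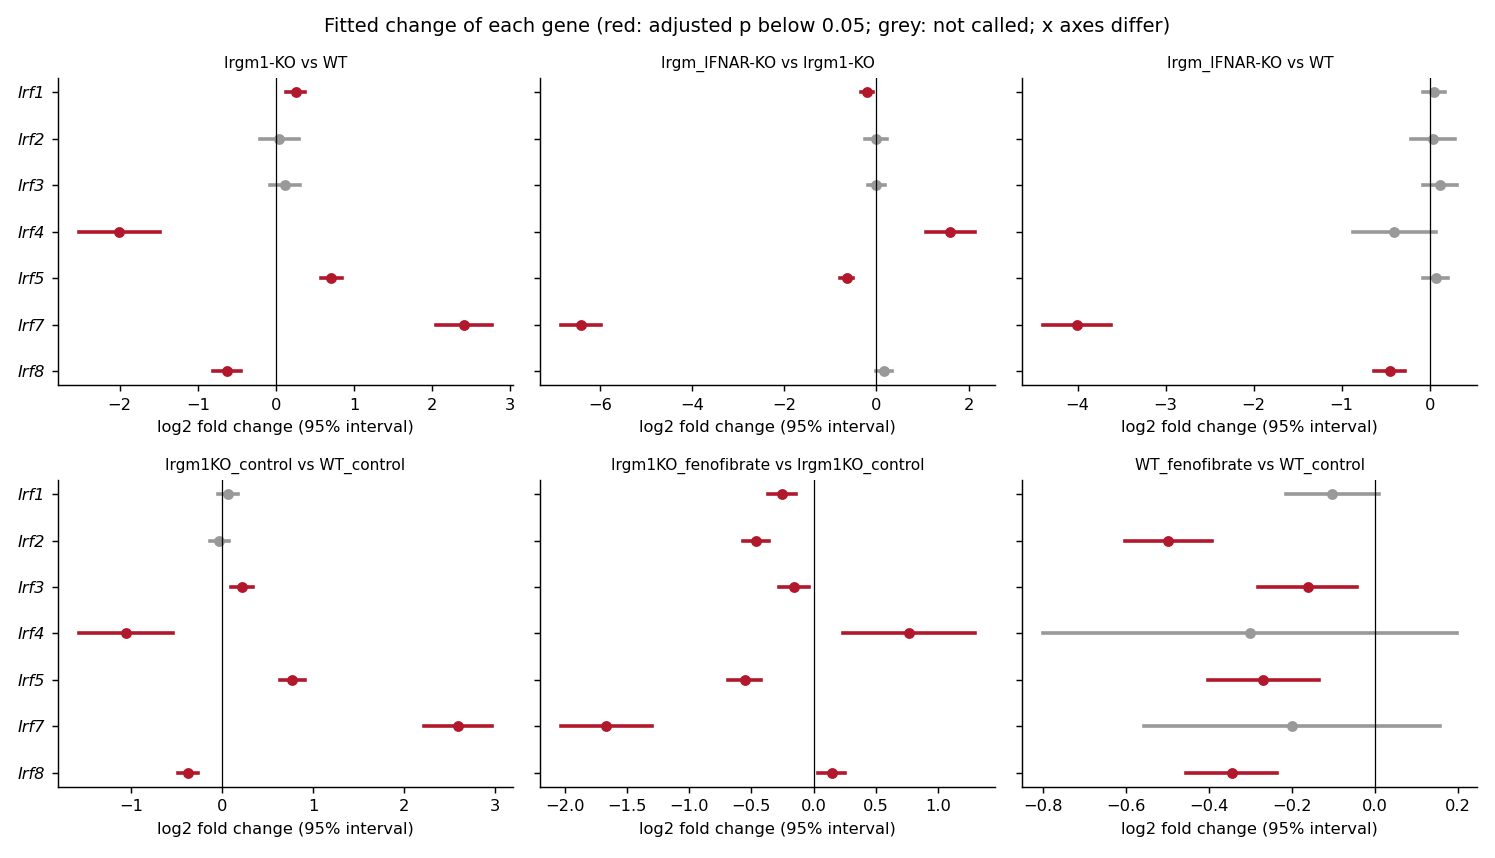
Fitted log2 fold change of each IRF gene with its 95% interval in 6 comparisons (red, adjusted p below 0.05; grey, not called; the x axes differ in scale). Irf8 lies below 0 in WT cells given fenofibrate (-0.34) and above 0 in Irgm1KO cells given fenofibrate (0.15).

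The difference between the fenofibrate effects in Irgm1KO and WT cells was itself tested, as the interaction of genotype and drug. It was called for 4 of the 7 genes, 2 in each direction, with 14.9% of tested genes called in the positive and 14.7% in the negative direction. For Irf7 the log2 change with fenofibrate was -1.67 in Irgm1KO and -0.20 in WT cells (difference -1.47, SE 0.238, adjusted p = 0.000316). For Irf8 it was 0.15 in Irgm1KO and -0.34 in WT cells, opposite in sign (difference 0.49, SE 0.0729, adjusted p = 0.000125). These are the members whose interaction call held under every alternative tried. The call for Irf5 (difference -0.29, SE 0.0894, adjusted p = 0.0238) was lost without WT fenofibrate replicate 1 or Irgm1KO fenofibrate replicate 3 or 4, with adjusted p from 0.0521 to 0.0534. The call for Irf4 (difference 1.07, SE 0.343, adjusted p = 0.0275) was lost without WT control replicate 1 or 4, Irgm1KO control replicate 4 or Irgm1KO fenofibrate replicate 1, with adjusted p from 0.0501 to 0.0667. Irf2, Irf3 and Irf1 were not called (0.03, 0.00 and -0.15 on the log2 scale). Their 95% intervals were -0.12 to 0.18 for Irf2, -0.17 to 0.17 for Irf3 and -0.31 to 0.00 for Irf1, and Irf1 was called without Irgm1KO fenofibrate replicate 2 (difference -0.21, adjusted p = 0.0121).

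Fenofibrate narrowed the genotype difference in Irf7 and Irf5 without closing it. With both genotypes under the drug, 3 of the 7 genes were higher and 0 lower in Irgm1KO cells, with 18.1% of tested genes called higher and 15.2% lower. No member was lower at an unadjusted p below 0.05 in edgeR or at an adjusted one in DESeq2. The higher ones, the same 3 whose libraries did not overlap (28.9% of tested genes), were Irf7 (log2 fold change 1.12, SE 0.169, adjusted p = 0.000185), Irf5 (log2 fold change 0.49, SE 0.0633, adjusted p = 4.26e-05) and Irf3 (log2 fold change 0.22, SE 0.0564, adjusted p = 0.00689). Among the others, Irf8 was called higher without WT fenofibrate replicate 3 (log2 fold change 0.16, adjusted p = 0.0259) and Irf1 lower without Irgm1KO fenofibrate replicate 2 (log2 fold change -0.14, adjusted p = 0.022). Against WT controls, treated Irgm1KO cells had 2 genes higher and 3 lower, with 25.9% of tested genes called higher and 22.5% lower, and these 5 had no overlap (44.4% of tested genes). Irf7 stayed 1.90-fold higher (log2 fold change 0.92, SE 0.169, adjusted p = 0.000347) and Irf5 was higher (log2 fold change 0.22, SE 0.0632, adjusted p = 0.00891), by 0.14 on the log2 scale without treated replicate 2. Irf2 (-0.50), Irf8 (-0.23) and Irf1 (-0.19 on the log2 scale) were lower than in WT controls. From high to low, Irf7 ran from Irgm1KO controls through treated Irgm1KO cells to WT controls and treated WT cells, and only the last pair overlapped.

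The Irf7 to Irf3 ratio within a library was 21.4 ± 2.16 in treated Irgm1KO cells and 60.7 ± 5.63 in Irgm1KO controls (SD, n = 4), with separate ranges. In WT cells it was 11.4 ± 2.19 with fenofibrate and 11.7 ± 2.34 in controls, with overlapping ranges. The Irf1 to Irf2 ratio was higher with fenofibrate in both genotypes. It was 6.52 ± 0.698 in treated and 5.63 ± 0.0735 in control Irgm1KO cells, and 6.93 ± 0.201 in treated and 5.27 ± 0.187 in control WT cells, and in both genotypes the treated libraries lay above the controls.

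**Figure D4:**
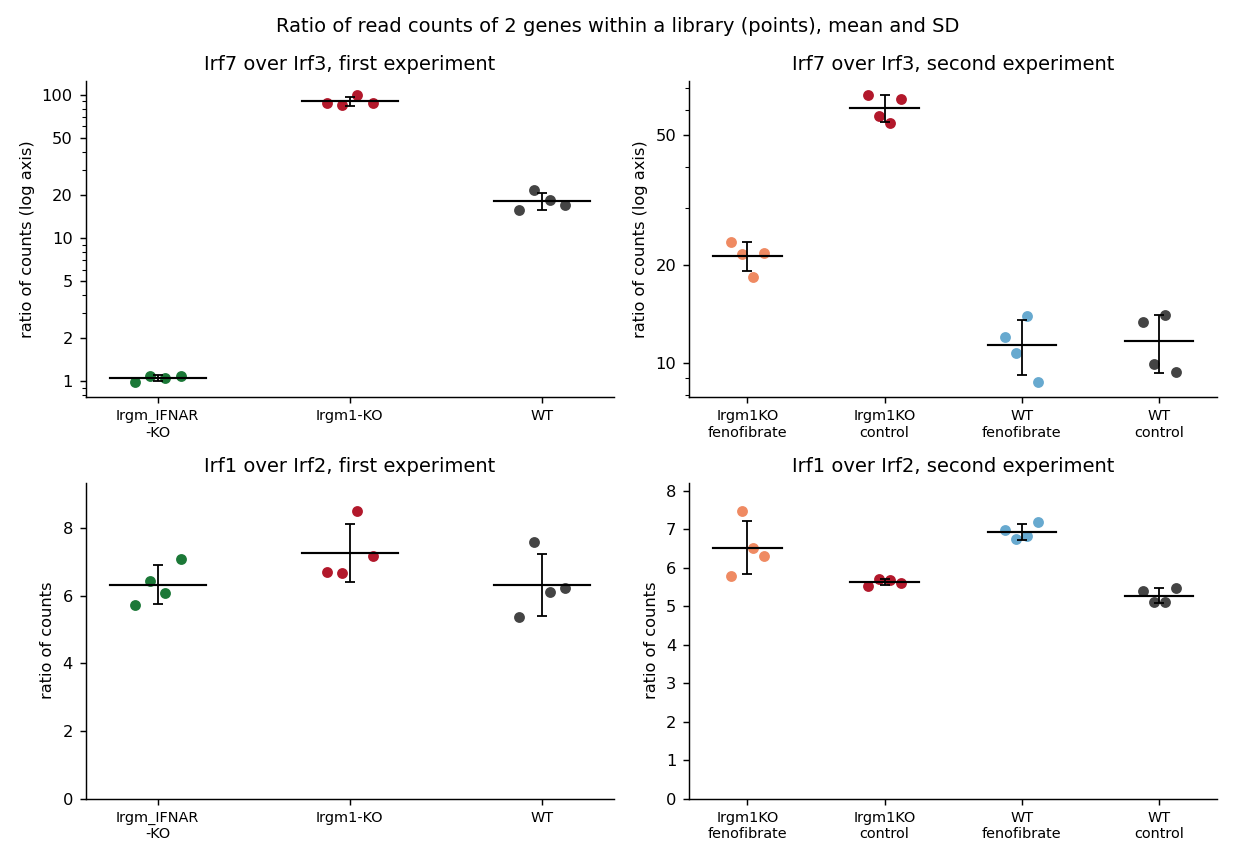
Ratio of Irf7 to Irf3 reads (top, log axis) and of Irf1 to Irf2 reads (bottom, from 0) within each library, by group (points are libraries, 4 per group; line, mean; bars, SD). The Irf7 to Irf3 ratio is 0.983 to 1.09 in Irgm_IFNAR-KO cells, 85.1 to 98.8 in Irgm1-KO cells and 15.6 to 21.5 in WT cells.

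The genes that act on IRF proteins or respond to them were followed in 9 lists, each described by its counts and its median log2 fold change. Over all tested genes, 19.8% were called higher and 20.7% lower in Irgm1-KO than in WT cells, 21.5% and 21.3% in Irgm_IFNAR-KO than in Irgm1-KO cells, and 27.3% and 26.1% in Irgm1KO than in WT controls. With fenofibrate 23.5% were higher and 22.2% lower in Irgm1KO cells, and 18.1% and 16.9% in WT cells. Over all tested genes that median was 0.02 in Irgm_IFNAR-KO against Irgm1-KO cells, -0.02 in Irgm1-KO against WT cells, 0.00 in Irgm1KO against WT controls, and with fenofibrate 0.01 in Irgm1KO and 0.02 in WT cells. Of 13 tested kinases, adaptors and sensors that activate IRF3 and IRF7, 9 were higher and 0 lower in Irgm1-KO than in WT cells (median 0.59). Ifih1, the RNA sensor MDA5, had 482 ± 37.5 CPM in Irgm1-KO cells and 143 ± 18.0 CPM in WT cells (log2 fold change 1.75, adjusted p = 1.06e-07), and Tlr3, a receptor for double-stranded RNA, had 120 ± 14.3 CPM in Irgm1-KO cells and 42.7 ± 7.62 CPM in WT cells (1.49 on the log2 scale). The adaptors of TBK1 named Tank and Azi2 were higher by 1.14 and 0.64 on the same scale. In Irgm_IFNAR-KO against Irgm1-KO cells 0 were higher and 9 lower (median -0.37). With fenofibrate 11 of 13 were lower and 0 higher in Irgm1KO cells (median -0.68), and 9 were lower and 0 higher in WT cells (median -0.26). The 11 tested endosomal receptors and adaptors upstream of IRF5 and IRF7 held 2 higher (Tlr9 and Slc15a4) and 2 lower (Irak4 and Irak1, median -0.01) in Irgm1-KO cells, near the shares over all genes. Of the same list 9 of 11 were lower and 1, Irak1 (0.28), was higher with fenofibrate in Irgm1KO cells (median -0.44), and 8 were lower and 0 higher in WT cells (median -0.35).

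Among partners of IRF proteins 4 of 12 tested genes were higher and 1 lower in Irgm1-KO than in WT cells (median 0.18). Stat2 had 705 ± 76.0 CPM in Irgm1-KO cells and 291 ± 58.9 CPM in WT cells (log2 fold change 1.27). Batf2, a partner of IRF1, was higher (0.64), and Batf3, which acts with IRF8 in dendritic cells, was lower (-1.04). Of 11 tested negative regulators 8 were higher and 0 lower in Irgm1-KO than in WT cells (median 0.49), and 7 were lower and 1, Ppm1b (0.24, named after its value was seen), was higher in Irgm_IFNAR-KO than in Irgm1-KO cells (median -0.33). Oasl1, which blocks translation of Irf7 messenger RNA in mice, had 713 ± 60.3 CPM in Irgm1-KO cells and 35.7 ± 2.45 CPM in WT cells (4.32 on the log2 scale), Usp18, which damps signalling from the interferon receptor, 667 ± 188 CPM in Irgm1-KO cells and 98.7 ± 26.7 CPM in WT cells (2.76), and Trim21, a ubiquitin ligase for IRF proteins, 144 ± 10.6 CPM in Irgm1-KO cells and 87.2 ± 2.59 CPM in WT cells (0.73). Atf4, a stress factor that binds IRF7, stood apart with the drug, at 1.38 in treated against control WT cells and -0.06 in treated against control Irgm1KO cells, the second not called (adjusted p = 0.716).

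Of the target genes of IRF3 and IRF7, 9 of 9 tested were higher in Irgm1-KO than in WT cells (median 2.96), and 9 of 9 were lower in Irgm_IFNAR-KO than in Irgm1-KO cells (median -3.68). In the second experiment 9 of 9 were higher in Irgm1KO than in WT controls, and 9 of 9 were lower with fenofibrate in Irgm1KO cells, where the median was -2.02. Isg20, an antiviral exonuclease, had 145 ± 31.7 CPM in Irgm1-KO cells and 6.89 ± 1.06 CPM in WT cells, Rsad2, the antiviral enzyme viperin, 1991 ± 140 CPM in Irgm1-KO cells and 247 ± 31.7 CPM in WT cells, and Ifit1, which binds viral RNA, was higher by 2.16 on the log2 scale. With fenofibrate in WT cells 1 was higher, Rsad2 (0.48), and 4 were lower. These genes are classical interferon targets, so the list was chosen with their behaviour in these cells known and is no independent evidence of its direction.

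IRF1 targets were higher in 9 and lower in 1 of 14 tested genes in Irgm1-KO cells (median 0.49), the lower one being Ciita, the activator of MHC class II genes (-0.69), which is named after its value was seen. Nos2, the inducible nitric oxide synthase, had 21.1 ± 5.42 CPM in Irgm_IFNAR-KO cells and 240 ± 64.2 CPM in Irgm1-KO cells, against 14.2 ± 4.67 CPM in WT cells (log2 fold change of Irgm1-KO over WT 4.08, adjusted p = 7.73e-07). Cxcl9, a chemokine induced by interferon gamma, behaved otherwise, with 2274 ± 504 CPM in Irgm_IFNAR-KO cells and 2715 ± 205 CPM in Irgm1-KO cells, against 741 ± 83.2 CPM in WT cells. It was not called between Irgm_IFNAR-KO and Irgm1-KO cells (log2 fold change -0.26, adjusted p = 0.17), and was higher in Irgm_IFNAR-KO than in WT cells (1.62, adjusted p = 1.73e-05). With fenofibrate 10 of 14 targets were lower and 0 higher in Irgm1KO cells (median -0.46), and 5 were lower and 1 higher in WT cells (median -0.11). Of the IRF5 targets, 2 of 6 passed the filter in the first experiment, where Tnf was higher (1.08) and Il1b lower (-1.39) in Irgm1-KO than in WT cells. Both were higher in Irgm_IFNAR-KO than in WT cells (median 0.79), as were 3.94% of all tested genes. In the second experiment 4 were tested, with 2 higher and 1 lower in Irgm1KO than in WT controls. With fenofibrate 0 were higher and 3 lower in Irgm1KO cells (median -2.16), where Tnf fell by 1.26 and Il1b by 3.05 on the log2 scale. In WT cells 0 were higher and 2 lower with the drug (median -0.59).

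Among genes associated with IRF4 in alternative activation, 5 of 9 tested were lower and 0 higher in Irgm1-KO than in WT cells (median -1.56), and 6 were higher and 0 lower in Irgm_IFNAR-KO than in Irgm1-KO cells (median 1.25). Mrc1, the mannose receptor, had 265 ± 34.8 CPM in Irgm_IFNAR-KO cells and 55.1 ± 7.11 CPM in Irgm1-KO cells, against 266 ± 77.8 CPM in WT cells. Pdcd1lg2, the checkpoint ligand PD-L2, had 4.73 ± 0.525 CPM in Irgm_IFNAR-KO cells and 0.725 ± 0.0845 CPM in Irgm1-KO cells, against 2.14 ± 0.227 CPM in WT cells. Both were lowest in Irgm1-KO cells, as was Irf4, but both were named by their small p in Irgm1-KO against WT cells. That choice partly fixed the match in advance. In the second experiment 2 were higher and 2 lower of 7 tested in Irgm1KO against WT controls (median -0.26), near the shares over all genes, and the higher ones, Arg1 (4.71) and Ccl22 (1.31), are named after their values were seen. With fenofibrate 2 of these 7 were higher and 1 lower in Irgm1KO cells (median 0.07), and 0 were higher and 2 lower in WT cells (median -0.56). Genes associated with IRF8 in myeloid cells included 3 higher and 3 lower of 8 tested in Irgm1-KO cells (median -0.05), with Klf4, a factor of monocyte differentiation, at 2.44 and the protease gene Ctss at -0.35 on the log2 scale. Some genes sit in more than 1 list (Tlr4, Tlr9, Socs1, Il12a and Il12b), so the counts are not independent.

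The profile of each member over the 28 libraries, each experiment centred on its own mean, was compared with 8718 genes that were tested in both experiments at 5 CPM or more. These correlations describe libraries that share group differences, and they carry no test. Irf7 was most like Usp18 (r = 0.992), Oas1a (r = 0.988) and Oas1c (r = 0.985), the last 2 being oligoadenylate synthetase genes. Irf5 was most like Il2rg, the common gamma chain (r = 0.971), Arpc2 (r = 0.967) and Ripk2, a kinase of NOD signalling (r = 0.965), and Irf2 like Fgd3 (r = 0.973), Samhd1 (r = 0.968) and Gmip (r = 0.955). For Irf1 the closest were Manbal (r = 0.954), Rnf19b (r = 0.941) and Rab20 (r = 0.901), and for Irf3 Adprh (r = 0.933), Ptcd2 (r = 0.916) and Pfn1 (r = 0.915). Irf8 and Irf4 had the lowest such values, with Paqr7 (r = 0.907), Sdf2l1 (r = 0.883) and Arpc1a (r = 0.881) for Irf8, and Kctd12b (r = 0.898), Chn2 (r = 0.887) and Tnfrsf13b (r = 0.886) for Irf4.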

How the data were processed

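The authors deposited 2 tables of raw read counts per Ensembl gene, 1 per experiment, with a column for each of the 28 libraries. The submitters' processing notes name fastp, STAR, DESeq2 and genome build GRCm39, without versions. No source used here gives the counting tool, its annotation or whether it read the strand. The first table held 15423 genes and lacked genes of low count, so its marker lists are incomplete.

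Counts were analysed per experiment with edgeR 4.0.16 in R 4.3.3: TMM scaling, filterByExpr (minimum count 10, minimum total 15), robust quasi-likelihood tests over all libraries of the experiment, and Benjamini-Hochberg adjustment over all tested genes with a threshold of 0.05. A standard error is the fold change divided by the square root of its F value, and intervals are 95% intervals. The code was tested on simulated counts. Alternatives were DESeq2 1.42.0, RLE scaling, no filter, each library left out, a replicate block and log2 Xist as a covariate. Gene lengths and coordinates came from GENCODE M21 and promoter sequences from RefSeq, both GRCm38, and were joined by Ensembl ID or symbol, with no coordinates taken from GRCm39.

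The replicate number in the titles paired treated with control libraries of 1 genotype in the second experiment, since deviations of same-numbered libraries correlated at 0.38 to 0.488 in WT and 0.261 to 0.371 in Irgm1KO cells. The main fenofibrate and interaction tests did not use this pairing, which entered only through the alternative with a replicate block. With that block 6746 genes in place of 5407 were called in treated against control WT cells. No pairing by replicate number was seen in the first experiment or across genotypes. In the first experiment deviations of WT and Irgm1-KO libraries with different numbers correlated at -0.676 to 0.724, and what such libraries share was not tested.

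Named list genes were the 4 per list with the smallest p in Irgm1-KO against WT cells and at least 1 CPM in the higher group. Some of them are left out of the text. Of 100 list genes 98 were matched, all but Rigi and Tasl. The members and lists were chosen with earlier results of these data known.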

Additional observations from a re-analysis of the deposited data

Results flagged for a closer look

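In 6 of 49 groups of 4 libraries, 1 library lay far from the other 3 by Dixon's test, which chance gives in about 1 of 20 groups. Irf3 stood at 30.3 CPM in Irgm_IFNAR-KO replicate 4 and at 25.7 CPM in Irgm1KO fenofibrate replicate 2, both high. Irf7 stood at 2996 CPM in Irgm1-KO replicate 3 and Irf5 at 307 CPM in Irgm1KO fenofibrate replicate 2, also high. Irf4 stood low, at 0.439 CPM in WT fenofibrate replicate 2 and at 0.606 CPM in Irgm1KO fenofibrate replicate 3.

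The response to fenofibrate differed between Irgm1KO and WT cells by the interaction test for 4 genes. The log2 difference, Irgm1KO minus WT, was -1.47 for Irf7, 0.49 for Irf8, -0.29 for Irf5 and 1.07 for Irf4, of which the calls for Irf5 and Irf4 each depended on single libraries.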

How the results depend on the processing

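Of the fold changes of single IRF genes over all alternatives, 1149 kept their direction and their side of the threshold, 25 were no longer called, 9 became called and 56 changed sign. Every one that changed sign belonged to Irf2, Irf3 or Irf4 in a comparison where that gene was not called. With Xist as a covariate, 2 IRF genes were higher in Irgm_IFNAR-KO than in Irgm1-KO cells and 1 was higher than in WT cells, and Irgm_IFNAR-KO against WT cells gave 4258 called genes in place of 1702. The same covariate turned Irf2 to -0.018 in Irgm1-KO against WT and to -0.035 in Irgm_IFNAR-KO against WT cells, and Irf3 to 0.0065 in Irgm_IFNAR-KO against Irgm1-KO cells, where no filter gave 5.3e-05. In Irgm1KO against WT cells under fenofibrate, Irf2 came to -0.0054 with RLE scaling, -0.0054 with DESeq2, -0.0077 with no filter and -0.039 with the covariate, and Irf4 to -0.00066 with no filter and -0.067 with the covariate. For Irf3 the interaction came to -0.0048 with RLE scaling, -0.0027 with DESeq2 and -0.0055 with the covariate.

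The replicate block moved Irf7 in WT cells given fenofibrate to -0.20 with a call and the Irf3 interaction to -0.0012, and changed no other call. In the first experiment same-numbered libraries correlated at -0.479 to 0.519, so the numbers do not pair them.

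With each library left out in turn, 0 to 2 IRF genes were higher in treated than in control Irgm1KO cells, and 0 to 1 were lower in Irgm1KO than in WT cells under fenofibrate. The interaction was positive for 1 to 2 and negative for 1 to 3. Irf2 ranged from -0.047 to 0.12 in Irgm1-KO against WT, -0.086 to 0.031 in Irgm_IFNAR-KO against Irgm1-KO and -0.053 to 0.085 in Irgm_IFNAR-KO against WT cells, from -0.038 to 0.024 in Irgm1KO against WT cells under fenofibrate and from -0.0094 to 0.056 in the interaction. Irf3 ranged from -0.055 to 0.051 in Irgm_IFNAR-KO against Irgm1-KO cells, -0.012 to 0.079 in treated Irgm1KO cells against WT controls and -0.067 to 0.024 in the interaction. Irf4 ranged from -0.18 to 0.11 in Irgm1KO against WT cells under fenofibrate. The cause was not tested. Irf4 rested on 14 to 136 reads per library.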
